A study of Mus musculus with 4 samples.

Results

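Bile acids that reach the distal small intestine are taken up by enterocytes, carried through the cell and exported to the portal blood. Slc10a2 (ASBT) is the apical uptake transporter, Fabp6 the cytosolic bile acid binding protein, and Slc51a and Slc51b (Osta and Ostb) the subunits that together form the basolateral exporter. Inside the cell bile acids activate the nuclear receptor FXR, the product of Nr1h4, whose best known intestinal targets include Fabp6, the exporter subunits, the corepressor Nr0b2 (SHP) and the hormone Fgf15, which travels to the liver and represses bile acid synthesis. The apical transporter and Fgf15 are typical of ileum and are normally low in colon. These 7 genes were selected by platform gene symbol or synonym. Each had exactly 1 probe set, so 7 of the 45037 probe sets and 7 of the 18193 named genes are described.

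The samples are 4 Affymetrix mouse expression arrays of intestinal epithelial cells (IECs) from colon, 1 array for each genotype: loss of both Bmi1 and Mel18 in these cells (DKO, labelled Bmi1ΔIEC Mel18ΔIEC), loss of Bmi1 (Bmi1ΔIEC), loss of Mel18 (Mel18ΔIEC) and wild type (WT). Bmi1 and Mel18 (gene symbol Pcgf2) are paralogous PCGF subunits of PRC1, a Polycomb complex that silences chromatin. All mice were described as C57BL/6, sex-matched and 6 to 8 weeks old. All of them, WT included, were given the colitis-associated cancer model: azoxymethane at 10 mg/kg, then after 5 days 3.5% dextran sulfate sodium in the drinking water for 5 days, with cells taken on day 12. Cells were released from washed colon pieces by shaking in EDTA, with no sorting step in the protocol. The labels give neither the promoter that drives the deletion nor the number of mice behind an array. A single array per genotype leaves no replicates, so no error or p-value accompanies any value, and the precision of each difference is limited by that number of arrays.

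Values are RMA intensities, a background-corrected and summarised brightness per probe set, and differences are on the log2 scale. A gene was counted as higher or lower when the 2 arrays differed at least 2-fold and the brighter value reached a floor of 33.4 units, the median of all values in the table. The table holds no detection calls, so a value under the floor shows only that the probe set was dim. Intensities of different probe sets have no common scale, so a gene's level is set against its own level on other arrays and against the floor only. Array medians ranged from 32.1 to 34.2 units. The 10 general epithelial markers Epcam, Cdh1, Vil1, Krt8, Krt18, Krt19, Krt20, Cdx1, Cdx2 and Lgals4 were all above the floor on every array. Their summed intensities were 81958 (DKO), 69031 (Bmi1ΔIEC), 72338 (Mel18ΔIEC) and 80638 units (WT). All 10 measured fibroblast and smooth muscle markers and all 10 lymphocyte markers also reached the floor on at least 1 array. Reaching it therefore does not by itself identify the cells. The targeted genes did not check the labels. Bmi1 was brighter, by each of its probe sets, where the label says that it was lost, at 432 and 399 units (DKO) and 334 and 339 units (Bmi1ΔIEC), against 116 and 88.4 units (WT), and Pcgf2 lay between 9.53 and 39.8 units everywhere. The position of the probes relative to the deleted exons was not given, and the arrays are therefore called by their labels throughout, with every direction below resting on labels that Bmi1 goes against. The strongest Xist probe set, which reads the transcript of the inactive X chromosome, gave 611 units (DKO), 45.5 units (Bmi1ΔIEC), 54.2 units (Mel18ΔIEC) and 122 units (WT), and the brighter probe set of the Y-linked Eif2s3y gave 229, 282, 198 and 246 units in the same order. Xist was thus highest on the DKO-labelled array while Eif2s3y was above the floor on all 4. The Xist values differ between arrays of mice described as sex-matched, so that description is not borne out by them. The part of sex in the results was not tested.

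The promoters of the uptake transporter Slc10a2, the binding protein Fabp6 and the exporter subunit Slc51b are shown. These 3 transport and binding genes differed at least 2-fold between arrays. Nr1h4 did so as well, at 2.12-fold, and its promoter was searched but is not printed. RefSeq entries on GRCm38.p6, each of 300 bases from 250 before to 50 after the annotated start, matched 6 of the 7 genes, with no match for Fgf15. They were searched on both strands for the FXR inverted repeat AGGTCANTGACCT and for the palindrome GTTAATNATTAAC of HNF1, a transcription factor of gut and liver epithelium. In the sequences below, read 5′ to 3′ on the gene's own strand, capitals mark the closest window to the FXR repeat in Fabp6 and Slc51b and to the HNF1 palindrome in Slc10a2.
Slc10a2 (chr8:5105238-5105537, minus strand): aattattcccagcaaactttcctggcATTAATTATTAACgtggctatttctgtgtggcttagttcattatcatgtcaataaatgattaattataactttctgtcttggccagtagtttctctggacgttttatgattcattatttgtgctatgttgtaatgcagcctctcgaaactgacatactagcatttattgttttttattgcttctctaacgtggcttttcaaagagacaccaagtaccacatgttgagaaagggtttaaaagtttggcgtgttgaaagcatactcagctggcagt
Fabp6 (chr11:43601513-43601812, minus strand): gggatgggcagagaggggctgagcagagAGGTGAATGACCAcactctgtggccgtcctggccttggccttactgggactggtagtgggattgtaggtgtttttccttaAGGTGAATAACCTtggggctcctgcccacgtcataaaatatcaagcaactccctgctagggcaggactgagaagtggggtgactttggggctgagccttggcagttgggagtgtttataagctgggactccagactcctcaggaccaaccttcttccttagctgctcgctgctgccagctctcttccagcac
Slc51b (chr9:65422724-65423023, minus strand): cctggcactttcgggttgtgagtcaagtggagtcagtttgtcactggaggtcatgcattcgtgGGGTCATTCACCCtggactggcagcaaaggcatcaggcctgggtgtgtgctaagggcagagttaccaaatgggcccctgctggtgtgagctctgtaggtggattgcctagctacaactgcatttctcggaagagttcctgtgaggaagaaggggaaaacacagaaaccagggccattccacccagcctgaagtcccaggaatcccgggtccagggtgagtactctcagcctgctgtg
The Slc10a2 window ATTAATTATTAAC starts 224 bases before the annotated start and differs from the HNF1 palindrome in 1 of its defined letters, a likeness reached by 0.207% of 32851 promoters of the same length. In Fabp6 the windows AGGTGAATGACCA and AGGTGAATAACCT each differ from the FXR repeat in 2 letters, a likeness reached by 1.14% of promoters. The Slc51b window GGGTCATTCACCC differs in 3 letters, which 11.4% of promoters match at least as well. The nearest windows to the FXR repeat differed in 3 letters in Slc51a and in 4 letters in Slc10a2, Nr1h4 and Nr0b2. The Nr1h4 promoter held an HNF1-like window, GTTAATCAGTAAA, at 2 letters (1.36% of promoters). The motifs and the number of letters allowed to differ were chosen with the values known, and a match is a likeness of letters only.

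Slc10a2, the apical uptake transporter, gave a signal above the floor on the DKO-labelled array alone. It read 66.0 units on the DKO-labelled array, 7.33 units on the Bmi1ΔIEC-labelled array, 6.09 units on the Mel18ΔIEC-labelled array and 8.47 units on the WT array. The 3 dim values lay close together and well under the floor. The log2 difference of the DKO-labelled array was 2.96 from WT, 3.17 from Bmi1ΔIEC and 3.44 from Mel18ΔIEC, which placed the gene 31st from the top of 11853 genes in the comparison with WT. Because the dim side is set by background, the size of these differences is uncertain: set against the floor in place of the dim values, the DKO signal was 1.98-fold higher, and the gene could be counted in these comparisons solely through the array on which it was bright. On the Bmi1ΔIEC-labelled and Mel18ΔIEC-labelled arrays its differences from WT, -0.21 and -0.48, lay between values under the floor and carry no order.

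Fabp6, which binds bile acids in the cytosol, was above the floor on every array and highest on the DKO-labelled one. It read 457 units there, against 210.2 units (Bmi1ΔIEC), 141 units (Mel18ΔIEC) and 207 units (WT). The DKO-labelled array stood at least 2-fold above each of the others, with log2 differences of 1.14 from WT, 1.12 from Bmi1ΔIEC and 1.69 from Mel18ΔIEC. The Bmi1ΔIEC-labelled and WT arrays gave nearly the same value, a difference of 0.02, and the Mel18ΔIEC-labelled array lay 0.55 below WT, short of the 2-fold rule. Slc10a2 and Fabp6 were the 2 members that exceeded all other arrays at least 2-fold on the DKO-labelled array, as did 121 of the 12154 genes that reached the floor on any array.

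The exporter subunits gave different pictures. Slc51b read 564 units (DKO), 179.5 units (Bmi1ΔIEC), 218 units (Mel18ΔIEC) and 447 units (WT). Both arrays with a single loss were low, and the DKO-labelled and WT arrays were high. Slc51b was lower on the Bmi1ΔIEC-labelled array by the 2-fold rule, with a log2 difference from WT of -1.32, and on the Mel18ΔIEC-labelled array, with -1.04, although the second value became -0.98 and missed the rule when each array was centred on its median. From WT the DKO-labelled array differed by 0.33, and from the single-loss arrays by 1.65 (Bmi1ΔIEC) and 1.37 (Mel18ΔIEC). Slc51a, the partner subunit without which the exporter does not work, stayed under the floor on every array, at 24.7 units (DKO), 18.6 units (Bmi1ΔIEC), 21.1 units (Mel18ΔIEC) and 23.3 units (WT). Its probe set, of a type (_s_at) that may also read related transcripts, gave no measurable difference to set beside that of Slc51b.

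Nr1h4, encoding FXR itself, followed the order of Slc51b with smaller differences. It read 718 units (DKO), 339 units (Bmi1ΔIEC), 388 units (Mel18ΔIEC) and 529 units (WT). The log2 differences from WT were 0.44 (DKO), -0.64 (Bmi1ΔIEC) and -0.45 (Mel18ΔIEC), none of them past the 2-fold rule. The DKO-labelled array was higher than the Bmi1ΔIEC-labelled array by the rule, at 1.08, which became 0.996, just short of it, with arrays centred on their medians. From the Mel18ΔIEC-labelled array it differed by 0.89, and by 1.05, past the rule, when each array was centred on the median of its genes that reach the floor.

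The FXR targets that act as signals were dim throughout. Nr0b2, which represses bile acid synthesis genes with other nuclear receptors, read 32.6 units (DKO), 25.1 units (Bmi1ΔIEC), 23.4 units (Mel18ΔIEC) and 29.4 units (WT), all under the floor. Fgf15, the enterokine, read 13.5, 10.5, 11.6 and 10.9 units in the same order of arrays, further below it. For both genes the highest value was on the DKO-labelled array, but the 4 values lay within 1.40-fold (Nr0b2) and 1.28-fold (Fgf15) of one another, and no difference can be read at this signal. Neither gene therefore gave a difference that can be placed beside those of Fabp6 and Slc51b.

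**Figure D1:**
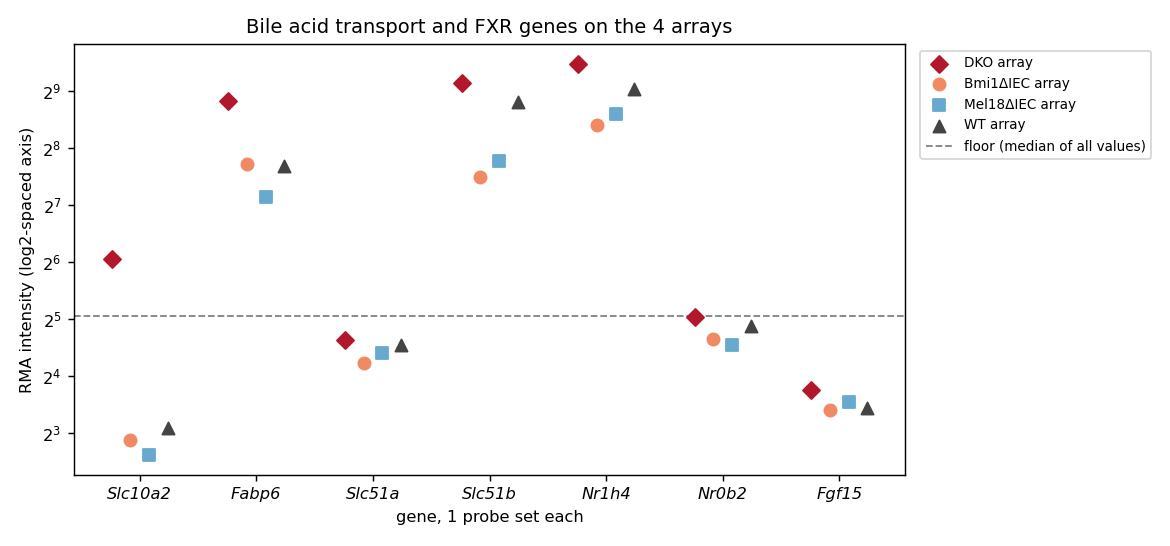
RMA intensity (vertical axis, log2-spaced) of the 7 genes, 1 probe set each, on the 4 arrays, with 1 point for each array and no error bars because there are no replicates. Slc10a2 crosses the dashed floor of 33.4 units on the DKO array alone, Slc51b and Nr1h4 are high on the DKO and WT arrays, and Slc51a, Nr0b2 and Fgf15 lie under the floor on all 4.

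Counted over the 7 genes, 2 were higher on the DKO-labelled than on the WT array and none lower, where 2.13% of the 11853 genes that reached the floor were higher and 2.19% lower. On the Bmi1ΔIEC-labelled array 1 gene was lower than WT and none higher, against 2.86% of 11934 genes lower and 5.76% higher. On the Mel18ΔIEC-labelled array 1 was lower and none higher, against 2.5% of 11862 genes lower and 3.15% higher. Between the DKO-labelled array and the single-loss arrays, 4 members were higher than in Bmi1ΔIEC (4.3% of 11966 genes) and 3 higher than in Mel18ΔIEC (3.84% of 11879 genes), with none lower (7.96% and 4.53%). Only 4 members reached the floor on any array and 3 on all arrays, so the 3 others could not have been counted in any comparison. Slc10a2 is among the members counted as higher in all 3 comparisons of DKO, solely through the DKO-labelled array. Set against the floor it was 1.98-fold higher there, short of the rule, so these counts are not like the shares beside them.

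The median log2 difference over all 7 members, dim ones included, was 0.33 for DKO, -0.23 for Bmi1ΔIEC and -0.45 for Mel18ΔIEC against WT. Over all named genes without a floor these medians were -0.0037, 0.01 and 0.00. These medians rest in part on dim genes, whose differences carry no order. The 3 differences from WT share the WT array and the 3 differences of DKO share the DKO array, so they are not separate observations. Among genes reaching the floor, the median lay 0.13 above WT on the Bmi1ΔIEC-labelled array and -0.14 in DKO against Bmi1ΔIEC. Relative to these medians Slc51b differed by -1.44 in Bmi1ΔIEC against WT. In DKO against Bmi1ΔIEC Fabp6 differed by 1.26, Slc51b by 1.79 and Nr1h4 by 1.23. Slc10a2 differed by 3.31 in the same comparison, a size that rests on its dim value in Bmi1ΔIEC.

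**Figure D2:**
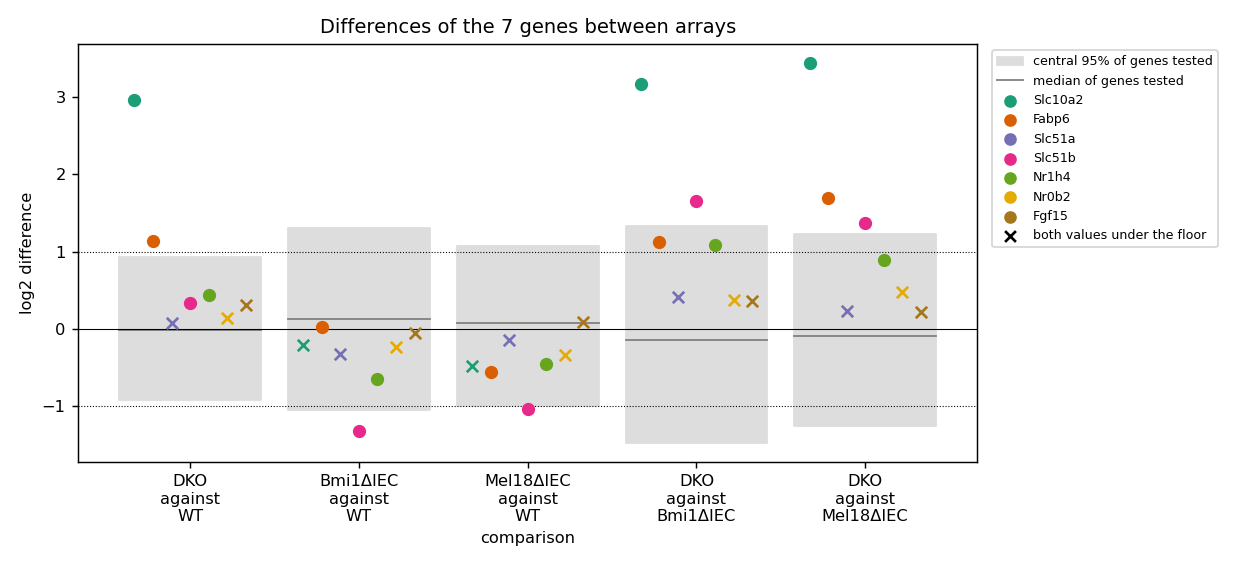
Log2 differences (vertical axis) of the 7 genes in the 5 comparisons of arrays, with crosses for genes under the floor on both arrays, grey bars for the central 95% of all genes tested and dotted lines at 2-fold. Slc10a2, dim on every array but DKO, lies above the grey bar in all 3 comparisons of DKO, and Slc51b lies below it in both single-loss comparisons with WT.

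The genes whose differences from WT were most like each member's were found over the 3 knockout-labelled arrays by Euclidean distance among 12153 genes at or above the floor on at least 1 array, which is a description of 4 arrays. Nearest to Slc10a2 were Prr9, Prap1, Itpripl2, Sp8 and Dmrt2. Because Slc10a2 was under the floor on 3 of the 4 arrays, as were Prr9, Sp8 and Dmrt2, its distances rest largely on dim values and are not given. Prap1 read 329.7 units (DKO), 26.5 units (Bmi1ΔIEC), 22.9 units (Mel18ΔIEC) and 39.6 units (WT). Nearest to Fabp6 were Pld2 at a distance of 0.04 log2 units, the T cell receptor component Cd3g at 0.15, Fam3c at 0.20, Zfpm1 at 0.28 and the amino acid transporter subunit Slc3a1 at 0.35. The Zfpm1 distance rests on values under the floor, 28.1 units (Bmi1ΔIEC), 21.3 units (Mel18ΔIEC) and 26.0 units (WT). Slc51b had Basp1 at 0.13, the cell cycle factor E2f2 at 0.17, the metallothionein Mt4 at 0.21, E030024N20Rik at 0.21 and the ERK phosphatase Dusp6 at 0.22. Mt4 was just under the floor in Bmi1ΔIEC, at 32.2 units. For Nr1h4 they were Pxdc1 at 0.07, Tmsb4x at 0.10, Srxn1 at 0.12, Ccdc68 at 0.12 and the mitochondrial glycerol phosphate dehydrogenase Gpd2 at 0.12. None of these 4 members was among the 5 nearest to another of them, and the 3 dim members were not compared.

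Around these 7 genes, 6 lists of other bile acid genes held 87 genes, of which 77 had a probe set with a single symbol. On the DKO-labelled array 58 of these could be counted against WT, with 8 higher and 3 lower by the 2-fold rule, where 2.13% of all genes were higher and 2.19% lower. On the Bmi1ΔIEC-labelled array 8 of 57 were higher and none lower (5.76% and 2.86% of all genes), and on the Mel18ΔIEC-labelled array 7 of 57 were higher and none lower (3.15% and 2.5%). These counts take the brightest probe set of a gene, and with the mean of log2 values over all its probe sets 8 of the 11 calls in DKO, 6 of 8 in Bmi1ΔIEC and 4 of 7 in Mel18ΔIEC were kept. Among 16 further transporters of bile acids, bile lipids and organic anions, the sterol exporter subunits Abcg5 and Abcg8 stood out on the DKO-labelled array. Abcg5 read 1746 units (DKO), 158 units (Bmi1ΔIEC), 148 units (Mel18ΔIEC) and 134 units (WT). Abcg8 read 339, 74.8, 86.0 and 75.7 units in the same order. Both were thus high on 1 array and level on the other 3, with log2 differences of 3.71 and 2.16 between DKO and WT. Abcb1a, the drug efflux pump P-glycoprotein, was higher than WT by the rule in DKO at 1.03 and in Mel18ΔIEC at 1.47 and differed by 0.97 in Bmi1ΔIEC. The other bile acid exporters did not pass in any comparison with WT: Abcc2, the canalicular type pump, lay under the floor, and the basolateral pump Abcc3 differed by -0.28 (DKO), -0.37 (Bmi1ΔIEC) and -0.04 (Mel18ΔIEC). The hepatic uptake carrier Slc10a1 and the canalicular bile salt pump Abcb11 were under the floor on all arrays.

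Of 17 nuclear receptors, coregulators and sensors with a probe set, 16 could be counted in DKO and 15 on each single-loss array against WT. By the rule 1 was higher in DKO, 2 in Bmi1ΔIEC and 1 in Mel18ΔIEC, and none was lower. Over all genes 2.13%, 5.76% and 3.15% were higher in the same order. Gata4, a transcription factor of proximal small intestine that in mouse represses Slc10a2 there, read 85.6 units (DKO), 19.9 units (Bmi1ΔIEC), 19.9 units (Mel18ΔIEC) and 21.0 units (WT), and so was above the floor on the DKO-labelled array alone. With the mean over its 2 probe sets it lay under the floor there too, at 25.7 units, against 12.2 units (WT), and the call was lost. The fatty acid receptor Ppara was higher by 1.25 in Bmi1ΔIEC and 1.05 in Mel18ΔIEC, against 0.33 in DKO, and the xenobiotic receptor Nr1i3 (CAR) by 1.11 in Bmi1ΔIEC, against 0.76 in DKO and 0.62 in Mel18ΔIEC. The Nr1i3 call and that of Ppara in Mel18ΔIEC were lost with arrays centred on the genes that reach the floor. The FXR partner Rxra differed by 0.15 (DKO), 0.38 (Bmi1ΔIEC) and 0.54 (Mel18ΔIEC) from WT, and Hnf4a, which many enterocyte genes depend on, by -0.01, 0.04 and 0.13. Neither passed the rule.

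The calls on the receptor side of Fgf15 signalling depended on the probe set. Of 6 genes with a probe set, 1 was higher in DKO, 2 in Bmi1ΔIEC and 3 in Mel18ΔIEC against WT by the brightest probe set of each. Over all genes 2.13%, 5.76% and 3.15% were higher in the same order. With the mean over probe sets none of the 6 was higher on any of these arrays. Klb, the coreceptor for endocrine FGFs, read 36.3 units (DKO), 91.5 units (Bmi1ΔIEC), 152 units (Mel18ΔIEC) and 49.4 units (WT). Its difference from WT passed the rule in Mel18ΔIEC, at 1.62, and was 0.89 in Bmi1ΔIEC and -0.44 in DKO. Fgfr3 differed from WT by -0.10 (DKO), 1.33 (Bmi1ΔIEC) and 1.63 (Mel18ΔIEC), and Fgfr2 by 1.06, 1.29 and 1.34, while Fgfr4, the main Fgf15 receptor in liver, differed by 0.36, 0.22 and 0.02. By the mean over probe sets the differences from WT in Mel18ΔIEC were 0.56 for Klb, 0.48 for Fgfr3 and 0.43 for Fgfr2, all short of the rule.

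Bile acid synthesis is a liver pathway, and 8 of its 18 genes, among them the rate-limiting enzyme Cyp7a1 and the sterol hydroxylase Cyp8b1, lay under the floor on all arrays. Cyp27a1, which starts the alternative route, was higher in DKO by 1.22 and differed by 0.52 in Bmi1ΔIEC and 0.76 in Mel18ΔIEC, and its call in DKO was lost with the mean over its 2 probe sets, at 0.67. Cyp39a1, an oxysterol hydroxylase, read 40.4 units (DKO), 247 units (Bmi1ΔIEC), 181 units (Mel18ΔIEC) and 104 units (WT), lower than WT in DKO at -1.36 and higher in Bmi1ΔIEC at 1.25. The acyl-CoA synthetase Slc27a2 was higher in Bmi1ΔIEC by 1.99. Among 13 detoxification genes, the cytochrome P450 Cyp2c55 read 124 units (DKO), 213 units (Bmi1ΔIEC), 353 units (Mel18ΔIEC) and 17.8 units (WT). Its WT value is dim, so it was higher on the 3 knockout-labelled arrays by at least 1.89 (DKO), 2.68 (Bmi1ΔIEC) and 3.40 (Mel18ΔIEC), the log2 size against the floor. The sulfotransferase Sult1c2 was higher in Bmi1ΔIEC (1.39), and the glutathione transferase Gstm1 was lower in DKO (-2.02). Of 9 genes listed as further candidates for FXR control in intestine, 3 were higher and 1 lower in DKO. Over all genes 2.13% were higher and 2.19% lower. The higher ones were Abcg5, Abcg8 and Ang, a secreted ribonuclease, at 1.34 (lost when probe sets that may read several transcripts were left out). Ang was also higher in Mel18ΔIEC, at 1.77, a call that no alternative removed. No other gene of this list passed against WT on a single-loss array. The lower one in DKO was Ang4, a relative of Ang made by Paneth and goblet cells, at -2.29. The nitric oxide synthase Nos2 (-0.32), Il18 (-0.21) and Car12 (0.00) did not pass in DKO.

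**Figure D3:**
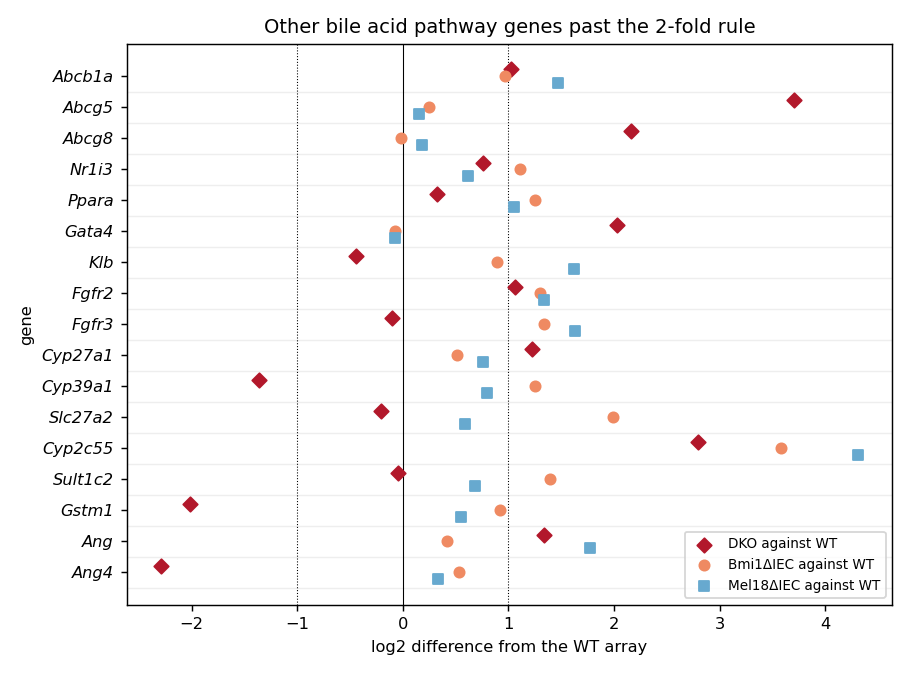
Log2 differences from the WT array (horizontal axis) of the bile acid pathway genes outside the 7 that passed the 2-fold rule on at least 1 knockout-labelled array, by the brightest probe set of each gene, with 1 point for each array and dotted lines at 2-fold. Abcg5, Abcg8 and Gata4 are high on the DKO array and close to 0 on the other 2, and Fgfr3 and Ppara are past 2-fold on both single-loss arrays and close to WT on the DKO array.

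Markers of cell types were read beside these results, since in bulk RNA fewer cells of a type and less RNA per cell cannot be told apart. Over all genes counted against WT, 2.13% were higher and 2.19% lower in DKO, 5.76% and 2.86% in Bmi1ΔIEC, and 3.15% and 2.5% in Mel18ΔIEC. The marker counts below stand beside these shares, with genes that had a probe set as denominators. Of 28 small-intestinal enterocyte markers with a probe set, 20 could be counted in DKO, 17 in Bmi1ΔIEC and 16 in Mel18ΔIEC. In DKO 14 were higher than in WT and none lower, against 5 higher in Bmi1ΔIEC and 6 in Mel18ΔIEC. Among the 14, Apoc3 read 35.2 units in DKO, just above the floor, and Gata4 lost its call with the mean over probe sets. Apoa1 had only probe sets that may read several transcripts. The list was chosen with earlier results of these data known, so the count is not independent of them. The median differences over all 28 were 0.99, 0.28 and 0.16 in that order. Their summed intensity was 14718 units (DKO), 6169 units (Bmi1ΔIEC), 6957 units (Mel18ΔIEC) and 5373 units (WT). Among those with the largest differences in DKO, the dipeptidase Naaladl1 was higher by 4.83 and the amino acid transporter Slc7a9 by 3.60. The aminopeptidase Enpep and the lipoprotein assembly factor Mttp were dim in WT, at 29.9 and 18.7 units, and were higher by at least 5.90 and 3.49 against the floor. At the same time 8 of the 28 lay under the floor on all arrays, among them lactase (Lct), trehalase (Treh), Fabp1, Anpep, Slc6a19 and the ileal vitamin B12 receptor subunits Cubn and Amn. Slc10a2, Fabp6 and the 14 markers were higher than in WT on the same array, but not all 14 were particular to it. Slc6a20a read 99.3 units (DKO), 179 units (Bmi1ΔIEC), 133 units (Mel18ΔIEC) and 40.5 units (WT). Fabp2 read 621, 569, 623 and 248 units in the same order. Over the whole list, 9 were higher in DKO than in Bmi1ΔIEC and 11 higher than in Mel18ΔIEC, with none lower. The part of small-intestinal cells in these values was not tested.

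The 23 colonocyte markers moved both ways in DKO, 2 higher and 3 lower than WT with a median of -0.23, and their summed intensity was 98038 units (DKO), 88986 units (Bmi1ΔIEC), 101523 units (Mel18ΔIEC) and 94387 units (WT). Car1 (1.45) and Guca2a (2.41) were higher in DKO, and Aqp8 (-1.43), Slc26a3 (-1.15) and Slc26a2 (-1.09) lower, the last missing the rule at -0.98 with the mean over probe sets. The 6 measured Paneth cell markers had 2 lower in DKO and none higher by the rule, Pla2g2a at -3.91 and Ang4 at -2.29. Their summed intensity went the other way, at 5472 units (DKO) against 4374 units (WT). Lyz1 was the brighter in DKO, at 2655 units against 1608 units (WT), short of the rule. Hepatocyte markers gave no common direction in DKO (1 of 8 higher), and albumin (Alb) was under the floor everywhere. Of 6 adipocyte markers Car3 alone was higher in DKO, at 2.84 by the brightest of its 4 probe sets and 0.97, with the call lost, by their mean, and Adipoq and Lep were under the floor.

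The arrays on which Slc51b and Nr1h4 were low were also those with low signal of several non-epithelial cell types. Neutrophil markers summed to 2179 units (DKO), 252 units (Bmi1ΔIEC), 339.8 units (Mel18ΔIEC) and 2354 units (WT), with 4 of 10 lower than WT on each single-loss array and none past the rule in DKO. S100a9 read 731 units (DKO), 15.95 units (Bmi1ΔIEC), 52.7 units (Mel18ΔIEC) and 762 units (WT). Macrophage and dendritic cell markers summed to 4494, 2784, 2609 and 4264 units in that order, with 8 of 13 lower in Bmi1ΔIEC and 2 in Mel18ΔIEC. Fibroblast and smooth muscle markers summed to 9935, 4627, 8018 and 8298 units, with 4 of 10 lower in Bmi1ΔIEC and none in Mel18ΔIEC. Markers of T and B lymphocytes summed to 3180.3 units (DKO), 1347 units (Bmi1ΔIEC), 1194 units (Mel18ΔIEC) and 1586 units (WT), and 4 of 10 were higher in DKO, namely Gzma, Gzmb, Cd3g and Jchain. Krt20, a marker of mature surface epithelium picked after its values were seen, had the order of Slc51b as well. It read 7296 units (DKO), 2730 units (Bmi1ΔIEC), 3637 units (Mel18ΔIEC) and 6668 units (WT). The 23 colonocyte markers, Krt20 among them, did not share this order. Their median differences from WT were 0.02 in Bmi1ΔIEC (1 higher, 2 lower) and 0.05 in Mel18ΔIEC (3 higher, 0 lower). The part of these cells in the values of Slc51b and Nr1h4 was not tested.

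**Figure D4:**
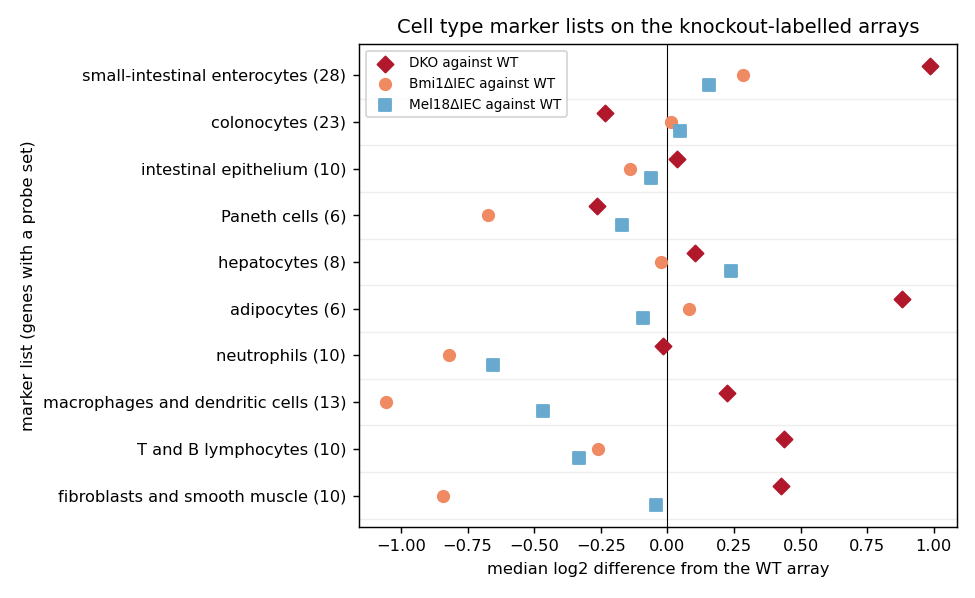
Median log2 difference from the WT array (horizontal axis) of 10 cell type marker lists, dim genes included, on the DKO, Bmi1ΔIEC and Mel18ΔIEC arrays, with the number of genes that had a probe set in brackets. Small-intestinal enterocyte markers are highest on the DKO array at 0.99, and neutrophil and macrophage markers are lower than WT on both single-loss arrays. The 6 adipocyte markers, 3 of them under the floor on all arrays, are at 0.88 on the DKO array.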

How the data were processed

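The deposited table holds probe set intensity values on a linear scale. Per the submitters' processing notes the authors summarised them by RMA in Affymetrix Expression Console, without a stated version. The sources used here do not say if RMA was run on the 4 arrays jointly. Log2 of each deposited intensity was taken, with no pseudocount and no further scaling. Of 45037 probe sets, 34945 had 1 gene symbol in the platform annotation, 932 several and 9160 none. Symbols were updated through gene identifiers to GRCm38.p6 for 34741. The probe set with the highest mean stood for a gene.

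All 5 comparisons set 1 array against 1 array, so no test was run. Genes named outside the 7 members are the listed pathway genes that passed the rule against WT, up to 4 markers per cell type list with the largest differences, the 5 genes most like each member that varied at least 2-fold, and, picked after their values were seen, genes of counts of 5 or fewer, dim genes, genes that missed the rule and Krt20. The members, the 16 lists and the rules were chosen with earlier results of these data known. Among the alternatives were another summary per gene, other floors, centrings, quantile normalization and a 1.5-fold rule. The work used Python 3.11.15, numpy 2.4.6, pandas 2.3.3 and matplotlib 3.10.9.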

Additional observations from a re-analysis of the deposited data

Results flagged for a closer look

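For some genes the same loss was followed by differences of opposite sign, each past the 2-fold rule, depending on whether the other gene's loss was present. These differences between differences use all 4 arrays once and were not tested, since no array is replicated, and they rest on labels that Bmi1 goes against. Among the 7 bile acid genes this held for Slc51b alone. For Bmi1 loss, Slc51b differed by 1.37 between DKO and Mel18ΔIEC and by -1.32 between Bmi1ΔIEC and WT, a gap of 2.69 on the log2 scale. For Mel18 loss the values were 1.65 between DKO and Bmi1ΔIEC and -1.04 between Mel18ΔIEC and WT, and the gap is the same 2.69 by construction. The second of these single-loss values no longer passed the rule with arrays centred on their medians. Over all genes tested in both comparisons, 2.96% of 11659 showed such opposite calls for Bmi1 loss and 2.66% of 11674 for Mel18 loss.

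Among the other bile acid pathway genes the signs ran the other way. The gap was -3.06 for Fgfr3 for either loss, -2.95 for Klb for Mel18 loss, -3.41 for Cyp39a1 for Bmi1 loss and -5.09 for Cyp2c55 for Bmi1 loss. Cyp2c55 read 17.8 units in WT, under the floor, so the size of its gap is uncertain. For Fgfr3 and Klb none of the differences behind the gap passed the rule with the mean over their 2 probe sets.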

How the results depend on the processing

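No difference of the 7 genes that passed the 2-fold rule changed sign under the 8 alternatives, and 267 of 275 recomputed differences stayed on their side of the rule. Much of this was fixed in advance. Each of the 7 has 1 probe set, so the mean over probe sets and leaving out shared probe sets could not alter a value. Other floors and the 1.5-fold rule change which differences count and not their size. The centrings moved all genes of a comparison by the same amount, for Slc51b in Bmi1ΔIEC against WT from -1.32 to -1.22 or -1.55. Shifts of that size could not reverse a difference past the 2-fold rule. Quantile normalization alone was not bound in this way. With the floor at percentile 75 of all values (136 units), Slc10a2 no longer counted in any comparison and 1 gene, Fabp6, stayed higher in DKO than in WT, against 2. With arrays centred on their medians no gene was lower in Mel18ΔIEC than in WT (0, against 1). Under the 1.5-fold rule Nr1h4 joined Slc51b as lower in Bmi1ΔIEC (2, against 1). Leaving out probe sets that may read several transcripts removed Slc51a, which was dim in any case. Over all genes, the counts past the rule in DKO, Bmi1ΔIEC and Mel18ΔIEC against WT were 512, 1028 and 670, but 331, 671 and 438 with the higher floor and 1503, 3027 and 2147 under the 1.5-fold rule, under which DKO against Bmi1ΔIEC gave 3740 (1468) and DKO against Mel18ΔIEC 2704 (994). The share of higher calls was 66.8% with deposited values and 38.2% after centring each array on the genes that reach the floor (Bmi1ΔIEC against WT), 55.8% and 36.6% (Mel18ΔIEC against WT), 35.1% and 61.4% (DKO against Bmi1ΔIEC), and 45.9% and 62.8% (DKO against Mel18ΔIEC). Of the 80 counts over lists and comparisons, 36 moved by over 1.5 times under the 1.5-fold rule, 16 with that centring and between 3 and 13 under each other alternative. No paired analysis was possible because each genotype has 1 array and the labels number no replicates.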

Other observations

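Some nuclear receptors tied to bile acid and sterol control passed the 2-fold rule in DKO against Bmi1ΔIEC and in none of the other 4 comparisons. They were picked for that after their values were seen. Of the 16 listed receptors, coregulators and sensors counted there, 3 were lower and 1 higher. Over all 11966 genes 7.96% were lower and 4.3% higher. The higher gene was Gata4, at 2.10, a call lost with the mean over its probe sets. Vdr, which binds lithocholic acid besides vitamin D, read 1066 units (DKO), 2265 units (Bmi1ΔIEC), 1715 units (Mel18ΔIEC) and 1195 units (WT). Nr5a2 (LRH-1), through which Nr0b2 represses bile acid synthesis in liver, read 427, 998, 627 and 638 units in the same order. The oxysterol receptor Nr1h3 read 31.96, 71.5, 52.1 and 43.9 units, just under the floor in DKO. Their log2 differences between DKO and Bmi1ΔIEC were -1.09, -1.22 and -1.16, all lost as calls with arrays centred on the genes that reach the floor, and that of Nr5a2 also with the mean over probe sets (-0.94). They were opposite in sign to that of Nr1h4 in the same comparison, 1.08.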
